A study of Homo sapiens with 6 samples.

Results

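The common gamma chain cytokines IL-2, IL-4, IL-7, IL-9, IL-15 and IL-21 signal through receptors that all contain the chain encoded by IL2RG. A further chain of each receptor decides which cytokine is bound, and the kinases JAK1 and JAK3 on the paired chains then activate STAT5, STAT3 or STAT6. This family is best known for the growth and survival of lymphocytes, and IL-4 and IL-21 also act on B cells during their maturation into plasma cells. Here 10 genes were followed: the ligand genes IL7 and IL15, the receptor genes IL2RG, IL2RA, IL2RB, IL4R, IL7R, IL15RA and IL21R, and IL4I1, which encodes a secreted amino acid oxidase first found as an IL-4-induced gene of B cells and is not a ligand or receptor. They were chosen by name, as the rows of the deposited table whose Ensembl identifiers carry these symbols, and all 10 were found among 63677 genes.

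All RNA was from RPMI8226, an established line of human multiple myeloma cells that the labels call wild-type, and both groups were of this single line. For 6 hr the cells received 100 nM of GST-PTR1 or, as the control, 100 nM of GST. GST-PTR1 joins glutathione-S-transferase (GST) to PTR1, a domain of the extracellular matrix protein HAPLN1. Both were recombinant proteins from E. coli, and the study measured their bacterial LPS with a Limulus assay. The study reported the LPS as a few orders of magnitude under the amount its NF-κB binding assay can detect in these cells. Each treatment had 3 libraries, described in the labels as biological replicates. They are lettered here by their totals, as A, B and C for GST (15202503, 20077280 and 23453473 counted reads) and D, E and F for GST-PTR1 (22874133, 28837431 and 44688737), and these letters are not the replicate numbers of the labels. At such depths 3 counts are worth between 0.0671 and 0.197 CPM (counts scaled to a total of 1e6), and for these low levels only counting error is covered.

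Levels are given as RPKM, CPM divided by the exon length in kilobases, because only values per length can be set beside each other between genes. Changes are log2 fold changes of GST-PTR1 over GST from edgeR's quasi-likelihood test on counts scaled by TMM factors, with p-values adjusted by Benjamini-Hochberg over the 16926 genes tested. The RPKM values are on unscaled library totals, so the ratio of a pair of RPKM means is somewhat smaller than the fitted fold. When TMM factors were replaced by library totals, the median over all genes moved by -0.20 on the log2 scale.

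Of the 8 genes that passed the expression filter, 6 were called higher in the GST-PTR1 libraries (adjusted p under 0.05): IL2RA, IL4I1, IL15RA, IL2RG, IL4R and IL21R. Among all genes tested, 9.15% were called higher. IL2RA passed the filter only through the GST-PTR1 libraries and so had to differ, and the counts that include it are descriptions. With a filter of 10 counts in every library, which left out IL2RA and IL2RB, 5 of 6 members were called higher, and 8.57% of all genes. IL2RA, IL4I1 and IL15RA rose at least 2-fold, where 3.68% of all genes did so. The libraries of the treatments did not overlap in RPKM for 5 of the 8, all with GST-PTR1 above GST, as for 8.71% of all genes. No member was lower (0 by edgeR, DESeq2 or limma's voom, and 0 at an unadjusted p under 0.05 in each), where these tools called 11.4%, 11.4% and 11.7% of all genes lower. DESeq2 and voom called 6 members higher, as edgeR did, and 10.7% and 9.15% of all genes. IL2RB and IL7R were tested and not called, and IL7 and IL15 had too few counts to pass the filter. The median log2 fold change of the 8 tested genes was 0.80, beside 0.01 for all genes tested. With library totals, 4 members were called, and IL4R and IL21R were not among them, while 5.48% of all genes were called higher. Without GST-PTR1 library E, 4 of the 9 members then tested were called (6.38% of all genes). The count was 7 of 10 without GST library A (7.84%), with a filter of 1 count in any library (8.25%), and on the 4 libraries whose columns share a number, with those numbers as a block (9.24%) or without it (10.3%). Each count of 7 includes IL7. Except with the filter of 1 count, which its GST counts also pass, IL7 could be tested there only because of its GST-PTR1 counts.

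**Figure D1:**
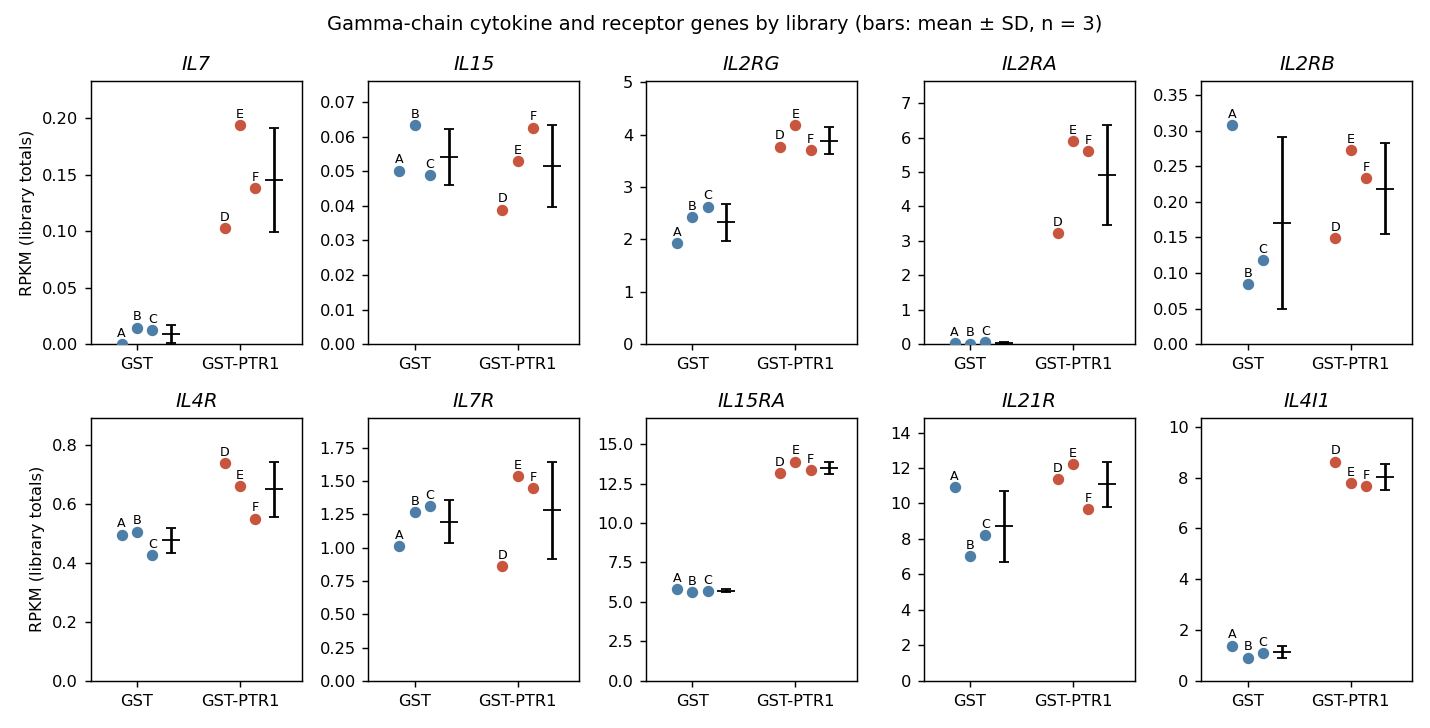
Each panel plots 1 gene in RPKM on library totals (its own linear axis from 0), with a point for each of the libraries A to F and bars for the mean ± SD (n = 3 per treatment). The treatments are apart in IL7, IL2RG, IL2RA, IL4R, IL15RA and IL4I1, and overlap in IL15, IL2RB, IL7R and IL21R.

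**Figure D2:**
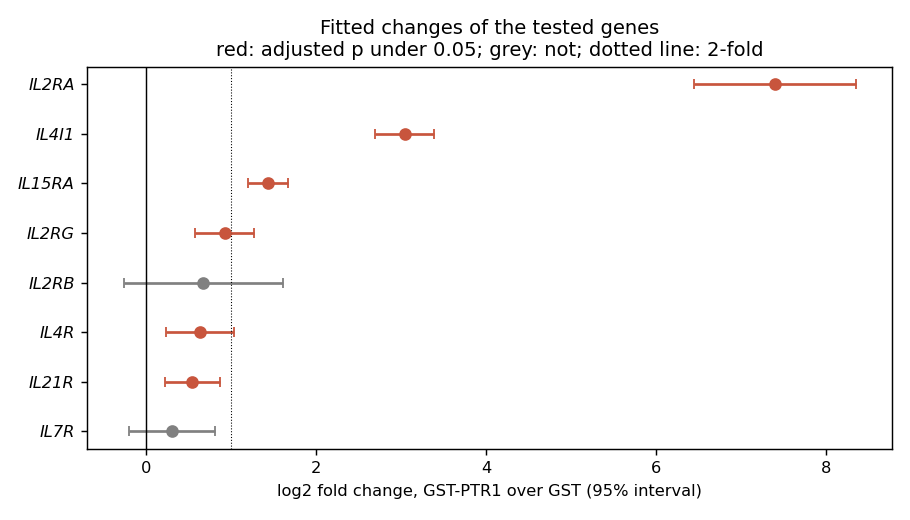
Points are the fitted log2 fold changes of the 8 tested genes and bars their 95% intervals, with genes at an adjusted p under 0.05 in red. IL2RA stands at 7.40, IL4I1 at 3.04 and IL15RA at 1.44, and the intervals of IL2RB and IL7R reach below 0.

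IL2RA encodes the alpha chain of the IL-2 receptor (CD25), which gives the trimeric receptor its high affinity and is a marker of activated T cells. The gene (ENSG00000134460) lies on the reverse strand of chromosome 10 of GRCh37, from 6052652 to 6104288. It had 1, 1 and 4 counts in GST libraries A, B and C, and 235, 539 and 796 counts in GST-PTR1 libraries D, E and F. It was thus near the limit of detection in every GST library and plainly counted in every GST-PTR1 library, with library D at the lower end. In RPKM it went from 0.0300 ± 0.0207 to 4.91 ± 1.46 (SD, n = 3 each). On the log2 scale the change was 7.40 with a standard error of 0.43 (adjusted p = 6.27e-07 in edgeR's test), given as a value because the gene entered the test only through its GST-PTR1 counts. A fitted fold against so few counts depends on edgeR's prior count. The plain ratio of the summed counts, 1570 against 6, corrected for library totals, was 159 with an exact 95% interval from 73.1 to 435 that covers counting error only. Without GST library C, which held 4 of the 6 counts, the log2 fold change was 8.19.

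The promoter of IL2RA is shown because it belongs to the member that changed most and holds a sequence of the NF-κB type. It is printed with the promoters of the other members that rose at least 2-fold, IL15RA and IL4I1. Windows run from 250 bases before to 50 bases after a transcription start in RefSeq's annotation of GRCh38.p14, which is not the build of the counts. All are on the reverse strand and read 5′ to 3′ along the gene, and capitals mark matches to the NF-κB consensus.
IL2RA, chr10:6062318-6062617: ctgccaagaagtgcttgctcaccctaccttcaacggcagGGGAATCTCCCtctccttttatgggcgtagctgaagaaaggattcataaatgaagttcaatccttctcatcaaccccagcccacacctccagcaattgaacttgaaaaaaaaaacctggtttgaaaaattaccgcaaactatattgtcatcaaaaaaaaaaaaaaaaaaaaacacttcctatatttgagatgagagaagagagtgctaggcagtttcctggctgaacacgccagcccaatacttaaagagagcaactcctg
IL15RA, chr10:5977562-5977861: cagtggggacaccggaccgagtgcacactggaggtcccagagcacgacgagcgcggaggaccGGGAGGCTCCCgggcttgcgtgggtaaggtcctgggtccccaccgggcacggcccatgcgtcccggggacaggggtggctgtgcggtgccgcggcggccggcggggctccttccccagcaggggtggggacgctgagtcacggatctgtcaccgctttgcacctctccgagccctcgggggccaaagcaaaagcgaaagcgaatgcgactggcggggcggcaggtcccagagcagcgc
IL4I1, chr19:49929455-49929754: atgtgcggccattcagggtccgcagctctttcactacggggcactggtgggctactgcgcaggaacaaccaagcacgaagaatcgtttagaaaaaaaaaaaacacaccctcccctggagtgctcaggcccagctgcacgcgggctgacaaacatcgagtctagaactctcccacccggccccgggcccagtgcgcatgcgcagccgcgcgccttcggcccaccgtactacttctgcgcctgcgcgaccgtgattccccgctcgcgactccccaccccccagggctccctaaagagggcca

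In IL2RA the capitals begin 211 bases before the start, and the 11 bases hold overlapping matches, 1 on each strand. IL15RA had 4 windows, and the one shown was picked because it alone held a match to the NF-κB consensus, which a largely overlapping window of a nearby start did not. In it the capitals begin 188 bases before the start, again as overlapping matches. The IL4I1 window held no match to any motif searched. In GRCh37 the annotated 5′ end of IL4I1 (50432796) lies close to that of NUP62 (50433020), a gene on the same strand. The window was the only one found for IL4I1, and whether it serves IL4I1, NUP62 or both was not tested. The search used the NF-κB consensus and the STAT-type palindrome TTCNNNGAA, also with 4 spacer bases in place of 3, on both strands. RefSeq windows were found for 7 members, 10 windows in all. Of the other windows, that of IL4R held 2 matches to the NF-κB consensus, and another start of IL15RA held the palindrome TTCGGCGAA 127 bases upstream. Over 35116 human promoter windows of the same length, 11.3% held the NF-κB consensus, 7.66% held TTCNNNGAA and 6.44% held the form with 4 spacer bases. A match of letters is a description and not a bound site.

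IL2RG (ENSG00000147168, chromosome X from 70327254 to 70331958, reverse strand), the shared chain of the family, had 1.93, 2.42 and 2.63 RPKM in A, B and C, and 3.77, 4.18 and 3.70 RPKM in D, E and F. There was no overlap between treatments. IL2RG rose by 0.93 on the log2 scale (standard error 0.16, adjusted p = 0.00194 in edgeR's test), which is 1.90-fold with a 95% interval from 1.49 to 2.41, and it was called in all 15 alternatives.

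IL2RB (ENSG00000100385, chromosome 22 from 37521878 to 37571094, reverse strand) encodes the beta chain that the IL-2 and IL-15 receptors share and that carries much of their signal. It was counted 22, 8 and 13 times in A, B and C, and 16, 37 and 49 times in D, E and F. The treatments overlapped, because GST library A, at 0.308 RPKM, was the highest of all 6 libraries. The log2 fold change was 0.68 with a 95% interval from -0.26 to 1.61 (adjusted p = 0.278), so neither a small fall nor a rise of up to 3.05-fold can be set aside at this depth. Without library A it was 1.30 (adjusted p = 0.0379).

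IL15RA (ENSG00000134470, chromosome 10 from 5990855 to 6020150, reverse strand) encodes the alpha chain that binds IL-15 with high affinity and can present it to neighbouring cells. It lies 32.5 kb from IL2RA, on the same strand. In A, B and C it had 5.81, 5.63 and 5.68 RPKM, and in D, E and F 13.2, 13.9 and 13.3 RPKM. The spread within each treatment was small beside the gap between them. IL15RA rose by 1.44 on the log2 scale, with a standard error of 0.11 (adjusted p = 4.01e-06), and all 15 alternatives called it, with values from 1.24 to 1.48.

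IL4R (ENSG00000077238, chromosome 16 from 27324989 to 27376099, forward strand) encodes the chain that binds IL-4 and also serves the IL-13 receptor. It had 0.497, 0.507 and 0.427 RPKM in A, B and C, and 0.739, 0.660 and 0.551 RPKM in D, E and F. The GST-PTR1 libraries were all above the GST libraries, with F close to the highest of them. Its rise on the log2 scale was 0.63, with a standard error of 0.18 (adjusted p = 0.0305). This call was lost without GST library A (adjusted p = 0.0523), GST library C (0.116), GST-PTR1 library D (0.0759) or GST-PTR1 library E (0.0867), with library totals (0.119) and after thinning all libraries to the smallest total (0.0622). It was also lost on the 4 libraries whose columns share a number, with the block (0.0873) and without it (0.073).

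IL21R (ENSG00000103522, chromosome 16 from 27413483 to 27462115, forward strand) encodes the chain that binds IL-21, a cytokine of follicular helper T cells, and starts 37.4 kb from the end of IL4R. It had 10.9, 7.01 and 8.21 RPKM in A, B and C, and 11.4, 12.2 and 9.70 RPKM in D, E and F. On library totals the treatments overlapped, since GST library A was above GST-PTR1 library F, and on TMM-scaled totals they did not. IL21R rose by 0.55 on the log2 scale, with a standard error of 0.15 (adjusted p = 0.0236). It was no longer called with library totals (adjusted p = 0.127), nor without GST library B (0.0713), GST library C (0.0926) or GST-PTR1 library E (0.0867). An antisense gene, IL21R-AS1, covers 30.2% of the exon bases of IL21R on the other strand. Counting was by strand, and IL21R-AS1 had at most 2 counts in any library.

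IL7R (ENSG00000168685, chromosome 5 from 35852797 to 35879705, forward strand) encodes the IL-7 receptor alpha chain, which early lymphocytes need and which also binds TSLP together with the product of CRLF2. It had 1.01, 1.27 and 1.31 RPKM in A, B and C, and 0.858, 1.53 and 1.44 RPKM in D, E and F. The treatments overlapped, with GST-PTR1 library D the lowest of all. The log2 fold change was 0.31 with a 95% interval from -0.20 to 0.81 (adjusted p = 0.365), and none of the 15 alternatives called it.

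The ligand genes had the fewest counts over both treatments together, although IL2RA had fewer than IL15 with GST. IL7 (ENSG00000104432, chromosome 8 from 79587978 to 79717758, reverse strand), which encodes a cytokine made mainly by stromal cells, had 0, 1 and 1 counts in A, B and C, and 8, 19 and 21 in D, E and F. All GST libraries were at or under 3 counts and all GST-PTR1 libraries were above it. The summed counts, 48 against 2, gave a ratio of 14.6 after correction for library totals, with an exact 95% interval for counting error from 3.83 to 124. IL7 did not pass edgeR's filter. It was tested in 7 of the alternatives and called higher in each (with a filter of at least 1 count in any library, adjusted p = 3.22e-06). Its GST counts also pass that filter, but it entered the other alternatives only through its GST-PTR1 counts. These calls are given as values. At 0.145 ± 0.0459 RPKM with GST-PTR1 (SD, n = 3) its mean was below that of every receptor gene, though its range overlapped that of IL2RB.

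IL15 (ENSG00000164136, chromosome 4 from 142557752 to 142655140, forward strand), the ligand of IL15RA, was counted 6, 10 and 9 times in A, B and C, and 7, 12 and 22 times in D, E and F. The treatments overlapped. The ratio of the summed counts, corrected for library totals, was 0.999, with an exact 95% interval from 0.593 to 1.71 for counting error alone, so a change was not detectable at this depth. The alternatives that tested IL15 (7) called it in 0 cases.

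IL4I1 (ENSG00000104951, chromosome 19 from 50392911 to 50432796, reverse strand) encodes an enzyme that oxidizes phenylalanine and is known to dampen T cells. It had 54, 47 and 65 counts in A, B and C, and 506, 576 and 877 in D, E and F. In RPKM it rose from 1.13 ± 0.240 to 8.03 ± 0.527 (SD, n = 3 each), with no overlap. This was a change of 3.04 on the log2 scale with a standard error of 0.16 (adjusted p = 2.56e-07), an 8.24-fold rise that was called in all 15 alternatives. Exons of IL4I1 coincide in part with those of NUP62, a nuclear pore gene on the same strand. Reads in the 336 shared bases (13.1% of the IL4I1 exons) were left out of the counts of both genes. NUP62 itself rose by 0.36 on the log2 scale (adjusted p = 0.0368).

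Set out per length, the order of the levels differed between treatments. With GST, IL21R had the highest mean level (8.72 RPKM), followed by IL15RA (5.71), IL2RG (2.32), IL7R (1.19), IL4I1 (1.13), IL4R (0.477), IL2RB (0.170), IL15 (0.0541), IL2RA (0.0300) and IL7 (0.00908). The ranges of IL7R and IL4I1 overlapped, as did those of IL15 and IL2RA, and the other neighbours in this order were apart over the 3 libraries. For IL2RA (1, 1 and 4 counts) and IL7 (0, 1 and 1 counts) the counts are too few to settle which is higher. With GST-PTR1 the order was IL15RA (13.5 RPKM), IL21R (11.1), IL4I1 (8.03), IL2RA (4.91), IL2RG (3.88), IL7R (1.28), IL4R (0.650), IL2RB (0.218), IL7 (0.145) and IL15 (0.0515). Here the ranges of IL2RA and IL2RG overlapped, as did those of IL2RB and IL7. By mean level IL2RA thus moved from the 9th to the 4th place, although its place beside IL15 and IL7 with GST was not settled. An exact permutation test of the RPKM of a single gene cannot go below p = 0.1 with 3 libraries against 3, and IL2RA, IL2RG, IL4R, IL7, IL15RA and IL4I1 were at that p.

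Because these chains belong to receptors that also contain the product of IL2RG, each was also divided by IL2RG within the same library. This removes the library scaling. IL2RA was between 0.00649 and 0.0204 of the IL2RG level in the GST libraries, and between 0.858 and 1.52 in the GST-PTR1 libraries. IL15RA went from between 2.16 and 3.01 to between 3.32 and 3.61, also without overlap. The IL7R ratio went from between 0.498 and 0.523 to between 0.228 and 0.391, without overlap, while the level of IL7R itself was not called. IL2RG rose 1.90-fold, so the ratio of any gene with an unchanged level falls. The share of all genes whose ratio to IL2RG was apart between treatments was not computed. The ratios of IL2RB, IL4R and IL21R overlapped between treatments. Of the IL-2 receptor chains, IL2RA had the lowest mean level with GST and IL2RB, at a ratio of 0.0559 ± 0.0143 (SD, n = 3), the lowest with GST-PTR1. For IL2RA, IL15RA and IL7R the exact two-sided permutation test of the ratio gave p = 0.1, the smallest that 3 against 3 libraries allow. These are ratios of RNA and not of protein at the cell surface.

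**Figure D3:**
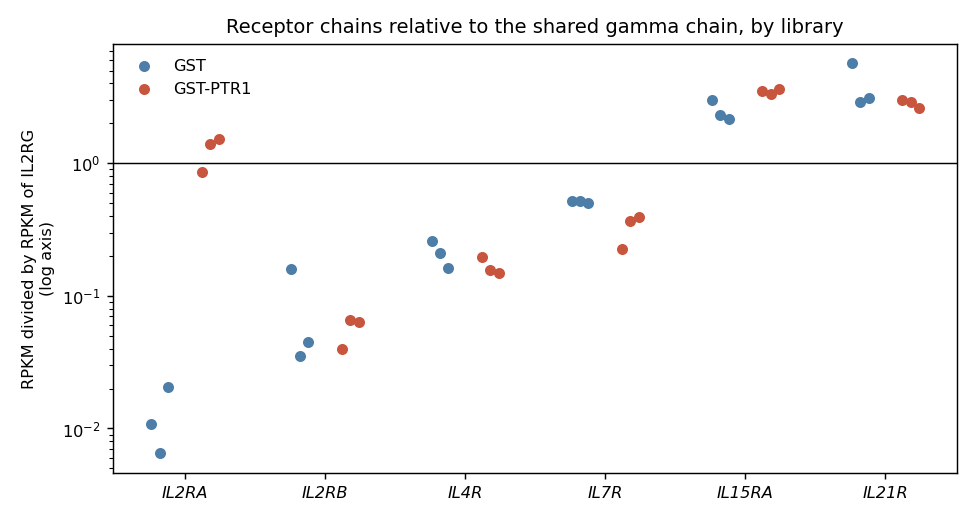
The RPKM of each receptor chain is divided by that of IL2RG in the same library and plotted on a log axis, GST in blue and GST-PTR1 in red, with 3 libraries each. IL2RA rises from at most 0.0204 to at least 0.858, and IL7R falls without overlap relative to IL2RG, which itself rose.

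Further genes of the family, with genes for IL-13, TSLP and their receptors, which lie outside the family as defined above, give the setting. Of 10 further ligand and receptor genes, IL2, IL4, IL9, IL21, IL13, IL9R and IL13RA2 had at most 3 counts in every library, and IL2 and IL9 had 0 in all of them. IL21 had 1 count, in GST-PTR1 library E. IL2 was thus not detected and IL21 was at the limit of detection at this depth, while the chains that bind these cytokines were counted. IL13RA1 (0, 2 and 2 counts in A, B and C, and 4, 4 and 6 in D, E and F) was not tested. Nor was TSLP (0, 1 and 1, and 2, 1 and 8). CRLF2, the partner of IL7R in the TSLP receptor, was the single gene of this list to be tested. It had 39, 31 and 38 counts in A, B and C and 38, 43 and 73 in D, E and F, and a log2 fold change of -0.03 with a 95% interval from -0.56 to 0.51 (adjusted p = 0.947).

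Of 18 kinases, adaptors and STATs, 17 were tested, with 5 higher, 3 lower and 9 not called, beside 9.15% higher and 11.4% lower among all genes. JAK3, the kinase that binds the gamma chain, rose most. It had 25, 29 and 34 counts in A, B and C, and 203, 217 and 233 in D, E and F, without overlap, and rose by 2.43 on the log2 scale, with a standard error of 0.22 (adjusted p = 1.87e-05). Its partner JAK1 had a log2 fold change of 0.08 with a 95% interval from -0.14 to 0.30 (adjusted p = 0.594) and was far more abundant, at 15.4 ± 1.01 RPKM with GST against 0.222 ± 0.0167 RPKM for JAK3.

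STAT3, used by IL-21, rose from 7.79 ± 0.851 to 21.0 ± 1.94 RPKM (SD, n = 3 each), or by 1.62 on the log2 scale with a standard error of 0.11 (adjusted p = 1.46e-06). The closely related STAT5 genes differed in outcome. STAT5A, which IL-2, IL-7 and IL-15 use together with STAT5B, rose by 0.94 on the log2 scale with a standard error of 0.14 (adjusted p = 0.000936), while STAT5B stood at -0.12 with a 95% interval from -0.41 to 0.17 (adjusted p = 0.542). The intervals of the STAT5 genes did not overlap, and the difference between them was not tested. STAT6, the STAT of IL-4, had a log2 fold change of 0.32 (adjusted p = 0.105). The remaining genes called higher, named here because they are few, were JAK2 (0.71, adjusted p = 0.0133) and TYK2 (0.49, adjusted p = 0.0197). JAK2 was not called without GST library C (adjusted p = 0.0668) or GST-PTR1 library E (0.0518) or with library totals (0.0504), and TYK2 was not called with library totals (0.15) or without B (0.0658), C (0.0815), D (0.0509) or E (0.0673). Lower were SYK, a kinase of the B cell receptor (-0.72, adjusted p = 0.000611), and, named after their values were seen, the adaptor IRS2 (-1.35, adjusted p = 0.0049) and the PI3-kinase subunit PIK3R1 (-0.62, adjusted p = 0.00632).

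Of 15 feedback regulators, 14 were matched by name and tested, with 4 higher, 1 lower and 9 not called, beside 9.15% and 11.4% of all genes. SOCS1, which inhibits JAK kinases, had 30, 20 and 55 counts in A, B and C, and 484, 443 and 696 in D, E and F, a rise of 3.47 on the log2 scale with a standard error of 0.25 (adjusted p = 2.7e-06). SOCS3 changed by 7.44 (adjusted p = 1.09e-09). CISH, the classic STAT5-induced inhibitor, had 366, 351 and 432 counts in A, B and C, and 425, 373 and 479 in D, E and F. Its log2 fold change was -0.32 with a 95% interval from -0.72 to 0.07 (adjusted p = 0.224), so a rise of the size seen for SOCS1 lies outside its interval. SOCS2, likewise known as a STAT5 target, had a log2 fold change of -0.44 (95% interval from -0.89 to 0.00, adjusted p = 0.146). Among the 15 alternatives SOCS2 was called lower only with library totals (-0.65, adjusted p = 0.039), and CISH was called lower in 1. The activity of STAT5 was not tested. The adaptor SH2B3 (0.85, adjusted p = 0.00145) and the phosphatase PTPN2 (0.63, adjusted p = 0.00428), both of which restrain JAK signaling, were higher. The phosphatase PTPN6 was lower (-0.66, adjusted p = 0.0444), and was not called without library A (adjusted p = 0.111), C (0.104), E (0.146) or F (0.122), nor after thinning (0.0669).

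Of 17 genes written down as known targets of these cytokines, 15 were tested, with 12 higher, 11 of them at least 2-fold, 0 lower (0 at an unadjusted p under 0.05) and 3 not called, beside 9.15% higher and 3.68% higher by that much among all genes. Many of these genes are also targets of NF-κB and of other cytokines. LTA had 8, 8 and 6 counts in A, B and C, and 91, 142 and 204 in D, E and F. It passed the filter only through the GST-PTR1 libraries and is named for that reason. BCL2, BCL2L1 and IL10 had already been reported by the study as induced in these libraries. The counts that include these genes, here and over all lists, are descriptions. IL10 changed by 8.60 on the log2 scale, BATF, a transcription factor of activated lymphocytes, by 4.85, BCL6, a germinal centre repressor, by 2.73, and the kinases PIM1 and PIM2 by 2.23 and 2.17. BATF went from 6.02 ± 0.875 to 152 ± 19.4 RPKM (SD, n = 3 each). MYC (0.09), FCER2 (-0.17) and OSM (0.45), named after their values were seen, had adjusted p-values from 0.346 to 0.586. Over all lists, 59 of 60 genes were matched. Of the 47 tested, 21 were higher and 4 lower, beside 9.15% and 11.4% of all genes. Their median log2 fold change was 0.27, beside 0.01 for all genes. A change of 2-fold or more was seen in 15 that rose and 1 that fell, where 3.85% of all genes were lower by that much. With library totals 19 were higher and 8 lower, where 5.48% of all genes were higher and 22.4% lower.

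**Figure D4:**
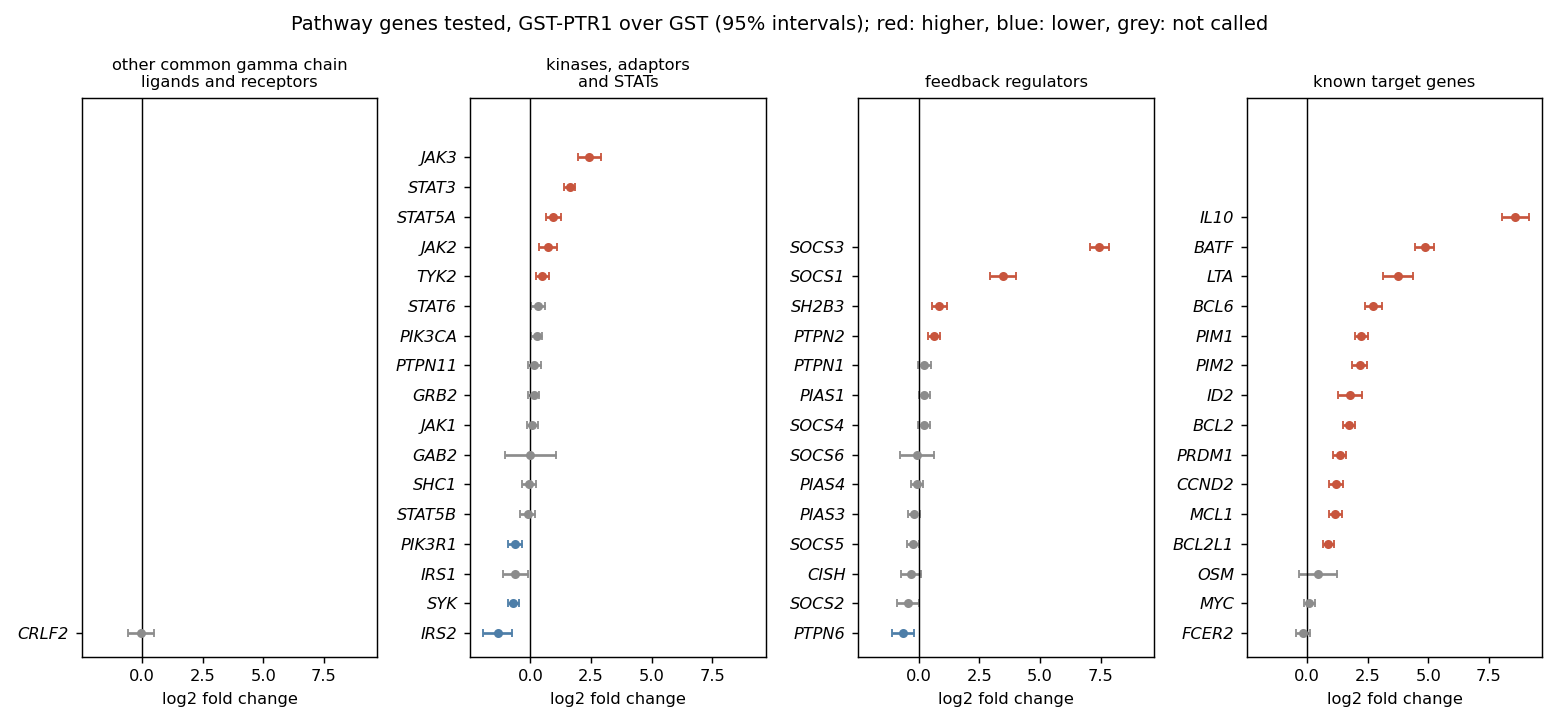
Log2 fold changes of the 47 tested pathway genes with 95% intervals, in panels by list, red where higher and blue where lower at an adjusted p under 0.05. JAK3, SOCS1 and SOCS3 lead their panels, while JAK1, STAT5B and CISH have intervals that include 0.

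The position of the members on the chromosomes was examined next. Within 100 kb of a member, 37 other genes passed the filter, of which 5 were higher and 4 lower (9.15% and 11.4% of all genes). The genes named here were chosen after their values were seen. RBM17, 26.7 kb from IL2RA on the side away from IL15RA, had a log2 fold change of 0.62 (adjusted p = 0.00311). FBH1, on the far side of IL15RA at a distance of 11.3 kb, stood at -0.12 (adjusted p = 0.473). LINC02605, a noncoding RNA gene 32.0 kb from IL7, went from 0.273 ± 0.0230 to 23.5 ± 2.92 CPM (SD, n = 3 each) and changed by 6.60 on the log2 scale (adjusted p = 8.08e-09). TMPRSS6, 16.3 kb from IL2RB, went from 0.0439 ± 0.0760 to 1.09 ± 0.317 CPM. LINC02605 and TMPRSS6, like IL2RA, could be tested only through their GST-PTR1 counts. ENSG00000228427, given below, could be tested only through its GST counts. The counts of 5 higher and 4 lower that include these genes are descriptions. ATF5, which overlaps the 5′ end of IL4I1 on the other strand, had a log2 fold change of 0.68 (adjusted p = 0.00379), and NUP62 is given above. Lower were FOXO4, 3.87 kb from IL2RG (-0.79 on the log2 scale, adjusted p = 0.00417), KDM8, 91.9 kb from IL4R (-0.60, adjusted p = 0.042), and 2 genes without a matched symbol, ENSG00000183473 near IL2RB (-0.66, adjusted p = 0.0207) and ENSG00000228427 near IL2RG (-1.15, adjusted p = 0.039). GTF3C1, the gene next to IL21R at a distance of 8.76 kb, stood at -0.16 (adjusted p = 0.44).

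Over the 6 libraries, the tested genes whose log2 CPM followed IL2RG most closely were RAB29 (Pearson's r = 0.997), NTRK2 (0.996) and GPATCH4 (0.995). Among the members, r with IL2RG ran from 0.33 for IL2RB to 0.96 for IL2RA. These values are descriptions over 6 libraries that share the same treatment contrast.

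The label of the cells was checked against markers. The plasma cell genes SDC1, CD38, TNFRSF17, IRF4, XBP1, PRDM1, SLAMF7, MZB1, JCHAIN and POU2AF1 were all counted, and their summed level was between 4382 and 5367 CPM with GST and between 3829 and 4390 CPM with GST-PTR1. Higher were IRF4 (0.65 on the log2 scale), PRDM1 (1.35) and SLAMF7 (1.52), and lower were SDC1 (-1.03), TNFRSF17 (-1.41) and XBP1 (-0.47), 3 of 10 in each direction beside 9.15% and 11.4% of all genes. Their part in the changes of the members was not tested. Because IL2RA and IL2RB are best known from T and NK cells, markers of these cells were examined as well. CD3D, CD3E, CD3G and CD2 had 5 counts in all libraries together, with CD2 at 0. NCR1, KLRD1, KLRF1 and PRF1 had 10, with NCR1 and PRF1 at 0. The summed level of the 8 T cell markers was between 10.8 and 12.6 CPM with GST and between 7.18 and 8.48 CPM with GST-PTR1, most of it from CD8A and TRAT1. The 6 NK cell markers summed to between 61.7 and 90.4 CPM with GST and between 34.3 and 50.5 CPM with GST-PTR1, nearly all from NCAM1. Of the 8 myeloid markers, LYZ, CD163 and FCGR3A had 1 count in all libraries together, with CD163 and FCGR3A at 0. CD14 had between 6 and 15 counts, CSF1R between 2 and 14, ITGAM between 1 and 8 and S100A8 between 1 and 22. The 8 summed to between 3.19 and 4.60 CPM with GST and between 5.90 and 10.96 CPM with GST-PTR1, led by S100A9, which had a log2 fold change of 1.68, and its part in the changes above was not tested. In RNA of whole cultures, a change in the number of cells with a transcript and a change in the amount per cell cannot be told apart.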

How the data were processed

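Total RNA of 6 RPMI8226 cultures was sequenced as strand-specific mRNA libraries. The authors deposited raw read counts per gene, made with featureCounts 1.5.0-p1 on the Ensembl 75 annotation of GRCh37, by strand, without multi-mapping reads or reads shared by genes. The aligner is not given in the sources used here. The submitters' processing notes name hg19, FastQC, Subread and limma. The authors' counts were used unchanged, with the deposited exon lengths for RPKM. Columns name the treatment but not the sample, so libraries were assigned by treatment. Pairs of one treatment differed by more than sampling noise (smallest chi-square per gene 7.66).

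Genes were tested with edgeR 4.0.16 (TMM factors, filterByExpr, quasi-likelihood test) in R 4.3.3. The same steps were tested on simulated data. With 200 genes changed by 1.5 on the log2 scale, edgeR recovered at least 97.5% (17154 to 17179 genes tested, 3 draws), and up to 8.45% of its calls were false. The changed genes were drawn from well-counted genes only, and no general shift between treatments was simulated. These rates therefore do not cover genes with few counts or the choice of scaling. Alternatives used DESeq2 1.42.0, limma 3.58.1, other scalings and filters, thinning, and fits without each library. P-values set the difference between treatments against the spread between these libraries, which all come from the same cell line. Members and lists were chosen with earlier results of these data known. Every member is named. Of each pathway list, up to 5 genes with the smallest adjusted p are named, with JAK1, JAK3, STAT3, STAT5A, STAT5B, STAT6, CISH and SOCS1 to SOCS3 whatever their value, and the 3 genes most correlated with IL2RG. Names were matched by Ensembl identifier, and SOCS7 was not matched. A further gene of the pathway lists is not reported here and was left out of their counts.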

Additional observations from a re-analysis of the deposited data

How the results depend on the processing

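In the 15 alternative fits, IL2RA, IL2RG, IL15RA and IL4I1 were called higher wherever they were tested (IL2RA was not tested with a filter of 10 counts in every library), and no tested member changed sign. The count of members higher was between 4 and 7, and 3 with a threshold of 2-fold. Lower members were 0 throughout. IL4R was not called with library totals (log2 fold change 0.44), after thinning (0.56), with the replicate block on 4 libraries (0.59) or with these 4 libraries unblocked (0.58). IL21R was not called with library totals (0.35). IL2RB was called with the block (1.5, adjusted p = 0.0022) and on the same 4 libraries without it (1.5), which leave out GST library A and GST-PTR1 library D (0.88 without D alone). Leaving out 1 library at a time gave log2 fold changes from 0.56 to 0.72 for IL4R, 0.43 to 0.72 for IL21R and 0.37 to 1.30 for IL2RB. Pathway genes lower numbered 4 (11.4% of all genes), 8 with library totals (22.4%) and 1 at 2-fold (3.85%). Without single libraries they numbered between 3 and 5, where between 6.77% and 10.5% of all genes were lower. Of the 25 pathway genes called, 22 were called in every alternative that tested them. On TMM-scaled totals, 4 of 20 RPKM means moved by over 1 SD. The causes were not tested. No paired analysis was possible for all libraries because the columns carry numbers that are not the replicate numbers of the labels. The block used the 4 libraries whose numbers recur, where deviations of same-numbered libraries correlated at -0.03. Different-numbered libraries gave the mirror value of 0.03, so this is a single comparison and cannot decide whether the libraries were paired. The unblocked twin of the block was chosen after seeing the data. Depth limits IL7 and IL15, with at most 22 counts in any library, and the GST level of IL2RA, with 6 counts in all.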
